A study of Mus musculus with 9 samples.

Results

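The members described here are the T-cell receptor gene segments measured by RNA-seq in the murine T15 cell line. They are all identifiers of the deposited count table that GENCODE M21 (GRCm38) annotates as variable (V), diversity (D), joining (J) or constant (C) segments of a receptor locus, with pseudogenes left out. This gave 211 segments of the 35288 listed identifiers, of 226 segments in the annotation. They were 129 V, 4 D, 70 J and 8 C segments. The other 15 annotated segments were all alpha V copies, and each of the 15 had a transcript with the same letters as that of a listed segment.

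T15 is a Smarcb1-negative murine cell line used as a model of peripheral T-cell lymphoma. Each of 3 groups held 3 libraries, described in the study as biological replicates. They were control cells, cells treated with 1 µM SAHA (vorinostat, an inhibitor of histone deacetylases) over 72 h, and Smarcb1-RE cells, which carry a lentiviral, doxycycline-inducible Smarcb1 cDNA, were selected with G418 and were induced with 0.5 µg/µl doxycycline for 72 h. Smarcb1 is a core subunit of the SWI/SNF chromatin remodelling complex, and SAHA and Smarcb1 were compared with control to see which genes each treatment changes. The study calls the control cells of its RNA-seq untreated. The labels mention vehicle-treated cells and cells with a control plasmid, but do not say to which kind the 3 control libraries belong. An effect of the vehicle can therefore not be told apart from SAHA. The study made several stable clones after selection, and the labels do not say which clones the Smarcb1-RE libraries came from. Transduction, selection, cloning and doxycycline thus cannot be told apart from Smarcb1 in Smarcb1-RE. Both comparisons with control used the same 3 control libraries. All libraries came from a single cell line, and the results hold for that line.

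A T cell builds each receptor chain by cutting its DNA and joining a V segment to a J segment, with a D segment between them in the beta and delta chains. The DNA between the joined segments is usually lost from that chromosome, the transcript of the joined gene is spliced to a C segment, and a mature T cell and its descendants keep the same joins. Alpha and beta chains pair in most T cells, gamma and delta chains in a smaller lineage, and the delta segments lie inside the alpha locus. Unjoined V segments can also be transcribed from their own promoters.

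By mean level over the 9 libraries, Trav9-2 and Trbv19 led the V segments and Traj35 and Trbj1-3 the J segments of the alpha and beta loci, and they are shown first because the results turn on them. Trav9-2, Trbv19 and Traj35 led their class in each group, whereas Trbj1-3 had fewer counts than Trbj1-5 or Trbj1-6 in SAHA replicates 1 and 3 and in Smarcb1-RE replicate 1. Trav9-2 (ENSMUSG00000094966) and Trbv19 (ENSMUSG00000076475) encode the variable domains of an alpha and a beta chain. The lines below give the second exon of each from GENCODE M21 on the plus strand, chr14:53591221-53591514 and chr6:41178749-41179048 (without the first bases of the Trbv19 exon), with the last in-frame cysteine codon in capitals, after which the joined part of the chain begins. 
Trav9-2: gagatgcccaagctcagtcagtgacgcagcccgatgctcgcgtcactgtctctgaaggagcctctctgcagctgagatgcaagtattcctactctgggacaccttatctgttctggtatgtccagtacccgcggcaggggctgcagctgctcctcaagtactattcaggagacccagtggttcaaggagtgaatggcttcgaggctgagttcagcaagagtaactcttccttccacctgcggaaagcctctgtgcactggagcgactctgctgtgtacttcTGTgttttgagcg
Trbv19: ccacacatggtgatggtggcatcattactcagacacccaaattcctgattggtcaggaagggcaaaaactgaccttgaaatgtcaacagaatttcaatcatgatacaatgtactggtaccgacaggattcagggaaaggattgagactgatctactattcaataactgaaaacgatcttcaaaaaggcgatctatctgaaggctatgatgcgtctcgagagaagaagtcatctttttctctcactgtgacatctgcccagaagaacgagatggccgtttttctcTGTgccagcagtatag

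J segments carry a conserved motif, searched here on the coding strand as a phenylalanine or leucine codon followed by a glycine codon, any codon and the first bases of another glycine codon. It was present in 57 of all 70 J segments (81.4%). The leading J segments, Traj35 (chr14:54183774-54183838) and Trbj1-3 (chr6:41534323-41534372, the shorter of its annotated ends), are shown with that motif in capitals. Beside them stand Traj37 and Trbj1-1, which lie 5′ of the leaders and had no count, Traj30, which was second among alpha J segments, and Trbj1-5 of the same beta cluster. 
Traj35: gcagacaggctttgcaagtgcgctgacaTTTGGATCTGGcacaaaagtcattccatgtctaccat
Traj37: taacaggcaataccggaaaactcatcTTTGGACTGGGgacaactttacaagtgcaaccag
Traj30: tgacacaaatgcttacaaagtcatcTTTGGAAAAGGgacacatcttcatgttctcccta
Trbj1-3: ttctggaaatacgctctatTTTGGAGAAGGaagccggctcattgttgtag
Trbj1-1: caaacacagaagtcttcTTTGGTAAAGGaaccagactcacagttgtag
Trbj1-5: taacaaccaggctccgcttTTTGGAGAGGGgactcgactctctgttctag

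Before the results, the libraries were checked. Smarcb1 had 2, 5 and 8 counts in control, 7, 13 and 3 with SAHA and 151, 147 and 142 in Smarcb1-RE libraries, so the targeted gene was raised in the libraries so labelled. Library totals ranged from 20900424 to 24941408 counts, and receptor segments took between 0.112% and 0.138% of them. The detection floor of 3 counts was 0.120 to 0.144 CPM (read counts scaled to library size), and this covers counting error only. Control replicate 1 stood apart, with a chi-square per gene of 13.4 and 15.0 against the other control libraries, whereas all other replicate pairs lay between 2.12 and 4.69, so the calls of named segments that change without it are given both ways. Among T-cell markers, Cd3e had 7310 to 9977 counts per library and Cd8a 16310 to 23528. Cd4 had none, Cd5 had 1 count in a single library and Cd2 3 counts in a single library. Of the 7 gamma-delta markers none passed the filter on low counts.

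Alpha and beta segments held nearly all receptor counts. Summed over the 9 libraries, 72873 counts fell on the alpha locus, 189209 on the beta locus, 35 on delta segments and 1 on gamma segments. The 35 delta counts all belonged to Trdc, the delta constant segment, with 1 to 8 counts in each library, and the 9 delta V, D and J segments had none. Of the 15 gamma segments only Tcrg-C2, a gamma constant segment, was detected, with its single count in control replicate 3. Both beta D segments also had no count, but at 11 to 16 bases the D segments are too short for a count to be assigned to them, so their counts of 0 carry no information.

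In control cells the order of levels per exonic kilobase began with the beta constant segments. Trbc1 stood at 562 ± 58.6 CPM per kb (SD, n = 3) and Trbc2 at 554 ± 53.9 CPM per kb, which did not differ beyond their spread. Trac, the alpha constant segment, followed at 305 ± 6.49 CPM per kb, then Trbv19 at 272 ± 4.44 and Trav9-2 at 169 ± 19.4 CPM per kb, each separated from its neighbours by more than their spread. The next V segment was Trbv13-2, at 31.8 ± 0.979 CPM per kb, and the highest alpha V segment after Trav9-2 was Trav13-1, at 3.67 ± 0.72 CPM per kb. Traj35 reached 107 ± 12.8 CPM per kb and Trbj1-3 22.0 ± 0.762 CPM per kb, but J segments are short and this scale does not allow for the length of a read.

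Counts of single segments depend on how the authors' quantification divided reads between near-identical copies. Trbv19, Trac, Traj35 and all detected J segments shared no 31-base word with any other segment. Trbc1 and Trbc2 shared 44.8% and 48.5% of their words with other segments, Trav9-2 shared 68.5%, and Trav4d-4, Trav5d-4, Trav6d-7 and Trav11 shared all of theirs (100%). Values of the alpha V copies and the division between Trbc1 and Trbc2 are therefore uncertain.

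Detected segments lay mostly on one side of each leader. Of the 72 listed alpha V segments 5′ of Trav9-2, 45 had at least 1 count, together 1806 counts over 9 libraries, with Trav13-1 highest at 414. Of the 22 alpha V segments 3′ of it, 4 had any count, together 32, of which 12 were assigned to Trav6-7-dv9. The region from the end of Trav9-2 to the start of Traj35 spans 592 kb and also holds all delta segments. These are the delta V, D and J segments without a count and Trdc, which had 35 counts, with 1 to 8 in each library.

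The alpha J segments were detected on the other side of their leader. All 20 alpha J segments 5′ of Traj35 had 0 counts in all 9 libraries, whereas 27 of the 30 alpha J segments 3′ of it had counts, 563 in all, 250 of them on Traj30. Lengths did not separate these sets, at 55 to 66 bases on the 5′ side and 57 to 66 bases on the 3′ side.

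In the beta locus, too, V segments 5′ of the leader were detected. All 13 V segments from Trbv2 to Trbv17, which lie 5′ of Trbv19, had 10 or more counts and summed to 6607, with Trbv13-2 highest at 2537. The 6 V segments from Trbv20 to Trbv30, between Trbv19 and the J clusters, summed to 4 counts. Trbv1, the V segment farthest 5′, had none, and Trbv31, which lies 3′ of Trbc2 on the minus strand, had 7. From the end of Trbv19 to the start of Trbj1-3 is 355 kb.

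Among beta J segments the detected ones were neighbours. Trbj1-3 had 322 counts, and Trbj1-4, Trbj1-5 and Trbj1-6 had 104, 219 and 235. Trbj1-1 and Trbj1-2, both 5′ of Trbj1-3, had 0 counts, as did Trbj1-7 and all 6 segments of the Trbj2 cluster, which lie just before Trbc2. Trbc2 itself had 67072 counts. The detected beta J segments were 50 to 54 bases long and the Trbj2 segments 47 to 51 bases. Trbj1-1 and Trbj1-2, at 48 bases, and Trbj1-7, at 46 bases, were shorter than every detected beta J segment. So were Trbj2-3, Trbj2-4 and Trbj2-5, at 49 bases, and Trbj2-7, at 47 bases. The part of length in the counts of 0 was not tested. The deposited values are counts per segment and hold no reads across joins, so which V was joined to which J was not tested.

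**Figure D1:**
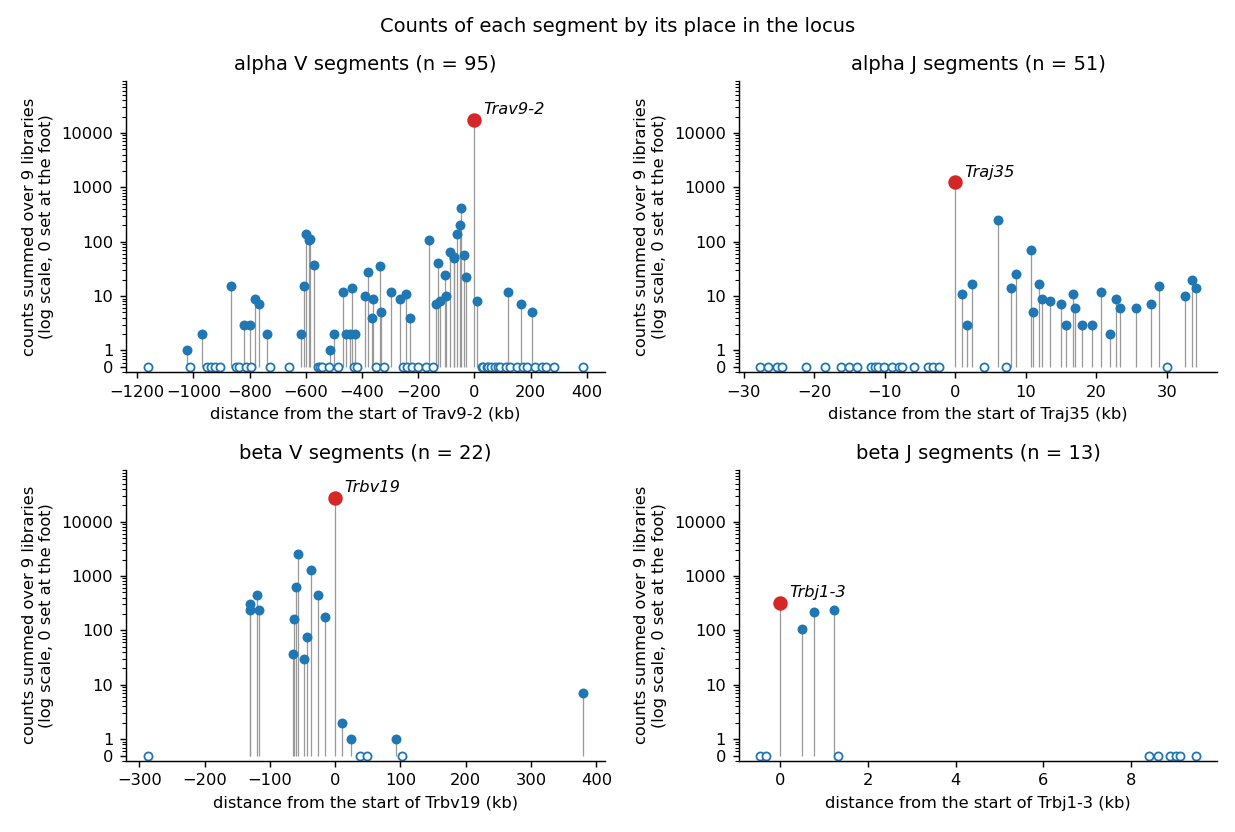
Counts of each alpha and beta V and J segment, summed over the 9 libraries (vertical axis, log scale, with 0 at the foot as open circles), by distance in kb from the start of the leading segment of its class (horizontal axis), which is drawn in red. V segments with counts lie mostly to the left of Trav9-2 and Trbv19, and J segments with counts lie to the right of Traj35 and Trbj1-3.

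How the 2 treatments changed the segments was read from the test across all 13697 genes that passed the filter on low counts (edgeR's quasi-likelihood test with p adjusted by Benjamini-Hochberg, called at an adjusted p under 0.05). Of the 211 members 31 passed, which were 10 alpha V, 2 alpha J, 12 beta V, 4 beta J and 3 C segments, and the other 180 were too low to test. Of the 31, Trav10, Trav11, Trav12-1, Trav7-5, Trbj1-4 and Trbv14 were under 10 counts in every control library, so they passed the filter only through the groups in which they were higher. Their tests are therefore no support for a difference. The filter asked for its minimum, scaled to library size, in at least 3 libraries. Among others, Trav6d-7 and Trbj1-5 reached 10 counts in a control library but did not meet the filter in the control libraries alone. The same limit holds for their tests. In bulk RNA, fewer cells with a transcript and less of it per cell cannot be told apart.

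Under SAHA, Trac, Trbc2, Trav9-2 and Trbv19 fell, Trbc1, the highest segment, did not pass the test, and many of the low V segments rose. Of the 31 tested segments 14 were higher, which is 45.2% against 32.6% of all tested genes, and 4 were lower, which is 12.9% against 34.3% of all genes. Of the 25 segments that reached 10 counts in a control library, a restriction chosen after seeing the data, 10 were higher (40%) and the same 4 lower (16%). Of the 20 tested V segments other than Trav9-2 and Trbv19, 13 rose and 7 did not pass the test. Of the 15 among them that reached 10 counts in a control library 9 rose, with Trav6d-7 included. None of the 20 fell, at an adjusted p in edgeR, at an unadjusted p under 0.05 or in DESeq2.

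In Smarcb1-RE the same 4 segments were lower, with Traj35 and Trav4d-4. There were 15 higher segments of 31, or 48.4% against 39.2% of all tested genes, and 6 lower, or 19.4% against 38.6%. Of the 25 segments that reached 10 counts in a control library, 10 were higher (40%), with Trbj1-5 and Trbj1-6 included, and 6 lower (24%). Of the 20 V segments other than Trav9-2 and Trbv19, 10 rose, 1 fell and 9 did not pass the test. Of the 15 among them that reached 10 counts in a control library, 6 rose. All 4 tested beta J segments were called higher. Of these, Trbj1-4, Trbj1-5 and Trbj1-6 did not meet the filter in the control libraries alone, so their tests are no support for a difference. The call of Trbj1-3 was lost when some single libraries were left out. Without control replicate 1, 15 of all tested segments were higher and 5 lower under SAHA, and 14 were higher and 6 lower in Smarcb1-RE.

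The constant segments behaved unequally. Trac, which anchors the alpha chain in the membrane, stood at 279, 290 and 288 CPM in control, 228, 220 and 226 CPM in SAHA and 238, 226 and 228 CPM in Smarcb1-RE libraries. Every treated library lay below every control library. The log2 fold change was −0.35 (SE 0.04, adjusted p = 3.85e-06, edgeR) under SAHA and −0.31 (SE 0.04, adjusted p = 6.92e-06, edgeR) in Smarcb1-RE, and SAHA and Smarcb1-RE did not differ at the threshold.

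Trbc2 was at 426, 359 and 365 CPM in control, 284, 267 and 270 with SAHA and 300, 306 and 296 in Smarcb1-RE libraries. Both treated groups lay below all control libraries. Its log2 fold changes were −0.49 (SE 0.06, adjusted p = 1.11e-05, edgeR) and −0.35 (SE 0.06, adjusted p = 0.000128, edgeR), and −0.41 and −0.27 without control replicate 1, the highest library. Trbc1, in contrast, was at 471, 404 and 388 CPM in control, 463, 428 and 423 with SAHA and 380, 384 and 390 in Smarcb1-RE libraries, and the treated groups overlapped control. Its log2 fold changes of 0.06 (SE 0.06) under SAHA and −0.13 (SE 0.06) in Smarcb1-RE did not pass the test. The Smarcb1-RE value passed, at −0.13 to −0.20, in DESeq2, with no filter on low counts and without control replicate 2 or 3 or SAHA replicate 1 (adjusted p from 0.0120 to 0.0477), and by library totals only it was 0.031. Without control replicate 1 the SAHA value was 0.14 and passed (adjusted p = 0.00635, edgeR).

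The division between both beta constant segments moved in turn. Trbc1 took 52.3% ± 0.694 (SD, n = 3) of their counts in control, 61.5% ± 0.457 with SAHA and 56.1% ± 0.68 in Smarcb1-RE. No 2 groups overlapped, and each of the 3 comparisons gave p = 0.1 in a two-sided exact permutation test, the smallest p that 3 against 3 libraries allow. As the segments share many words, this share rests on how reads were divided between them.

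Both leading V segments fell by amounts like those of Trac. Trbv19 stood at 154, 157 and 152 CPM in control, 125, 113 and 113 with SAHA and 126, 128 and 122 in Smarcb1-RE libraries. All treated libraries lay below all control libraries, with log2 fold changes of −0.40 (SE 0.05, adjusted p = 6.41e-06, edgeR) and −0.29 (SE 0.05, adjusted p = 5.91e-05, edgeR). As Trbv19 shares no word with another segment, its counts do not depend on copies.

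Trav9-2 was at 82.9, 98.2 and 104 CPM in control, 74.2, 76.1 and 75.2 with SAHA and 76.4, 78.3 and 78.8 in Smarcb1-RE libraries. The treated libraries again lay below the controls, but control replicate 1, the lowest of its group, was close to them. The log2 fold change was −0.34 (SE 0.07, adjusted p = 0.000633, edgeR) under SAHA and −0.29 (SE 0.07, adjusted p = 0.00155, edgeR) in Smarcb1-RE, and −0.43 and −0.38 without control replicate 1. Scaled by library totals only, which moved the median of all genes to 0.17 in Smarcb1-RE against control, the Smarcb1-RE value was −0.13 and did not pass (adjusted p = 0.112, edgeR).

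Traj35 had 142, 173 and 185 counts in control, 128, 119 and 143 with SAHA and 139, 91 and 121 in Smarcb1-RE libraries. SAHA libraries overlapped control, and the log2 fold change of −0.31 (SE 0.14) did not pass the test (adjusted p = 0.079, edgeR), though without control replicate 1 it was −0.40 and passed. Smarcb1-RE libraries lay below control in CPM, with a log2 fold change of −0.46 (SE 0.15, adjusted p = 0.0108, edgeR). By library totals only this value was −0.31 and did not pass (adjusted p = 0.071, edgeR).

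**Figure D2:**
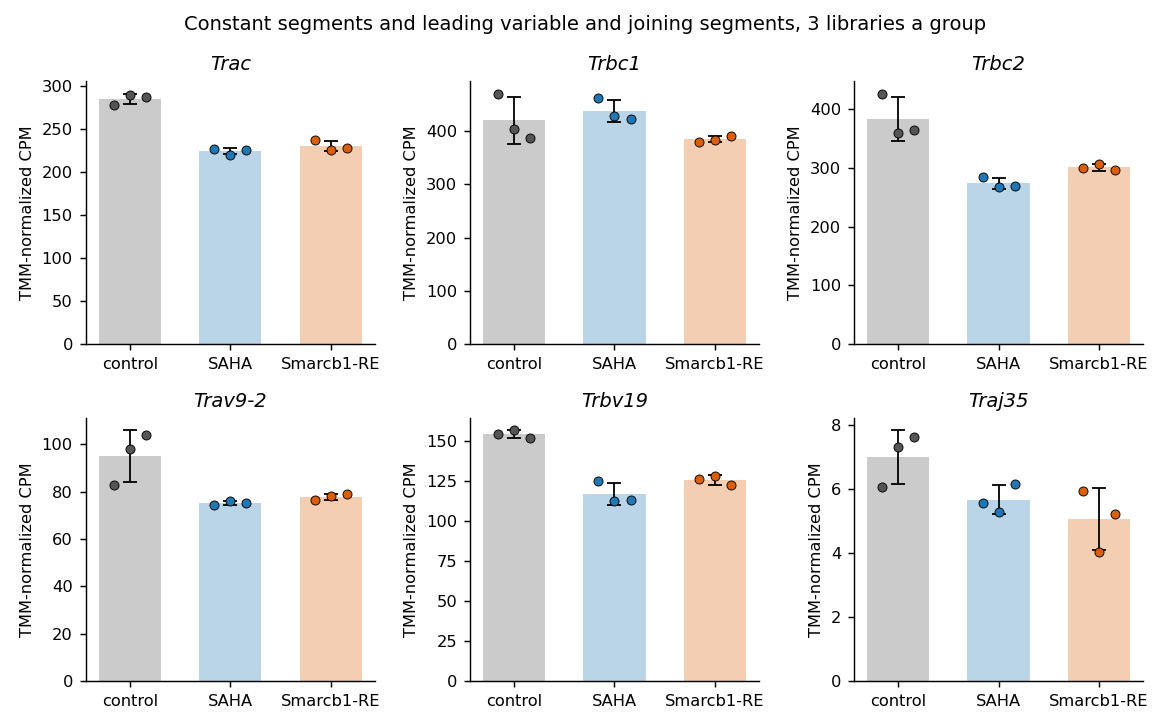
TMM-normalized CPM (vertical axes, from 0) of the constant segments Trac, Trbc1 and Trbc2 and of Trav9-2, Trbv19 and Traj35 in the 3 groups (horizontal axes), where points are libraries, bars are means and error bars are SD (n = 3). All Trac, Trbc2, Trav9-2 and Trbv19 points of SAHA and Smarcb1-RE lie below those of control, and the Trbc1 points overlap.

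Low V segments that rose under SAHA included members of both loci. Trbv4, 5′ of Trbv19, had 22, 24 and 16 counts in control, 73, 90 and 85 with SAHA and 43, 46 and 55 in Smarcb1-RE libraries. No groups overlapped, and its log2 fold change was 2.05 (SE 0.21, adjusted p = 2.86e-06, edgeR) under SAHA, 1.26 (SE 0.22, adjusted p = 0.000191, edgeR) in Smarcb1-RE and −0.79 (SE 0.19, adjusted p = 0.00245, edgeR) between Smarcb1-RE and SAHA. Its neighbours Trbv2, Trbv3 and Trbv5 rose by 1.29, 1.07 and 1.63 on the log2 scale under SAHA. In Smarcb1-RE, Trbv2 and Trbv5 rose by 0.80 and 1.35, and Trbv3, at 0.69, did not pass the test.

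Trbv15 and Trbv14 had another order, with Smarcb1-RE highest. Trbv15 had 63, 81 and 89 counts in control, 129, 119 and 146 with SAHA and 248, 194 and 217 in Smarcb1-RE libraries, with no overlap between groups. The log2 fold change was 0.81 (SE 0.14, adjusted p = 0.000234, edgeR) under SAHA, 1.54 (SE 0.14, adjusted p = 3.06e-07, edgeR) in Smarcb1-RE and 0.73 (SE 0.13, adjusted p = 0.000176, edgeR) between them. Trbv14 had 3, 3 and 1 counts in control, 5, 4 and 4 with SAHA and 19, 17 and 19 in Smarcb1-RE libraries. Its log2 fold change in Smarcb1-RE was 2.95 against control and 2.04 against SAHA, and as it passed the filter only through Smarcb1-RE no p is given.

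Trbv13-2, the highest beta V segment after Trbv19, had 247, 264 and 261 counts in control, 312, 289 and 348 with SAHA and 268, 289 and 259 in Smarcb1-RE libraries. It rose by 0.35 on the log2 scale under SAHA (SE 0.08, adjusted p = 0.00232, edgeR), and the Smarcb1-RE value of 0.13 (SE 0.08) did not pass. Trbv12-2, which had 51 to 87 counts in every library, was at 0.19 and 0.07 and did not pass either test. Trbv16 rose in Smarcb1-RE by 0.74 (SE 0.26, adjusted p = 0.0203, edgeR), and its SAHA value was 0.48 and did not pass.

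Among alpha V segments, Trav12-1 had 7, 5 and 1 counts in control, 24, 29 and 31 with SAHA and 30, 33 and 39 in Smarcb1-RE libraries. Both treated groups lay above control, at log2 fold changes of 2.71 and 2.98. Trav7-5, with 5, 2 and 4 counts in control, had 14, 22 and 27 with SAHA and 13, 26 and 26 in Smarcb1-RE, at log2 fold changes of 2.53 and 2.57. Both passed the filter only through the treated groups, so no p is given. Trav11 had 1 count over the 3 control libraries, against 16 over the SAHA libraries and 35 over the Smarcb1-RE libraries. The ratio of these sums, scaled by library size, was 16.6 (95% exact counting interval 2.58 to 696) and 36.1 (6.08 to 1468). Trav11 too passed the filter only through the treated groups, SAHA replicate 3 had no Trav11 count, and the SAHA call was lost without control replicate 1 or 3 or without SAHA replicate 1 or 2 (adjusted p from 0.0543 to 0.113, edgeR).

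Other alpha V segments were higher with SAHA than in either other group. Trav13-1 had 24, 27 and 36 counts in control, 66, 79 and 78 with SAHA and 35, 34 and 35 in Smarcb1-RE libraries. Its log2 fold change was 1.41 (SE 0.20, adjusted p = 3.67e-05, edgeR) under SAHA and −1.10 (SE 0.19, adjusted p = 0.000186, edgeR) between Smarcb1-RE and SAHA, and the Smarcb1-RE value of 0.30 against control did not pass. Trav10, with 0, 1 and 6 counts in control and 16, 18 and 12 in SAHA, and Trav6d-7, with 10, 6 and 7 in control and 16, 31 and 22 in SAHA, had the same pattern. Their log2 fold changes were 2.71 and 1.62 under SAHA and −2.03 and −1.85 between Smarcb1-RE and SAHA. Both passed the filter only through SAHA, as Trav6d-7 had 5, 6 and 8 counts in Smarcb1-RE, so their calls are no support for a difference. The SAHA value of Trav10 ranged from 2.15 to 4.66 as each library was left out, the highest without control replicate 3. The Trav10 call between Smarcb1-RE and SAHA was lost without SAHA replicate 2 or Smarcb1-RE replicate 3 (adjusted p = 0.0596 and 0.0628, edgeR).

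Trav4d-4 was the only V segment other than the leaders that fell in Smarcb1-RE. It had 15, 14 and 25 counts in control, 13, 28 and 17 with SAHA and 11, 7 and 6 in Smarcb1-RE libraries, a log2 fold change of −1.11 (SE 0.41, adjusted p = 0.0244, edgeR). The call was lost without control replicate 3 or without Smarcb1-RE replicate 2 or 3 (adjusted p from 0.0726 to 0.114, edgeR), and all of its words are shared with other segments. Trav5d-4 and Trav6-3 did not pass in either comparison with control.

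Among J segments, Trbj1-5 had 10, 10 and 14 counts in control, 38, 24 and 19 with SAHA and 40, 28 and 36 in Smarcb1-RE libraries. It was higher in both, by 1.30 (SE 0.32) and 1.65 (SE 0.31) on the log2 scale. Scaled to library size, its 10 counts in control replicates 1 and 2 lay under the minimum of the filter. It thus passed only through the treated groups, and no p is given. Trbj1-4, Trbj1-6 and Trbj1-3 were higher in Smarcb1-RE by 1.13, 1.05 and 0.73, and their SAHA values of 0.71, 0.63 and 0.29 did not pass the test. Trbj1-4 passed the filter only through the treated groups. Trbj1-6, with 9 counts in control replicate 2, did not meet it in the control libraries alone, so its tests are no support for a difference. Control replicate 1 had 25 Trbj1-6 counts, against 9 and 18 in the other control libraries. Without it the SAHA value of Trbj1-6 was 1.00 and its call changed, but the same limit holds and no p is given. Traj30, with 22, 27 and 16 counts in control and 34, 28 and 48 in Smarcb1-RE, rose by 0.80 (SE 0.30, adjusted p = 0.0271, edgeR). The Traj30 call was lost without control replicate 1 or 3 or Smarcb1-RE replicate 3 (adjusted p from 0.0521 to 0.145, edgeR), and that of Trbj1-3 without control replicate 2 or 3 or Smarcb1-RE replicate 2 or 3 (from 0.0639 to 0.104, edgeR).

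**Figure D3:**
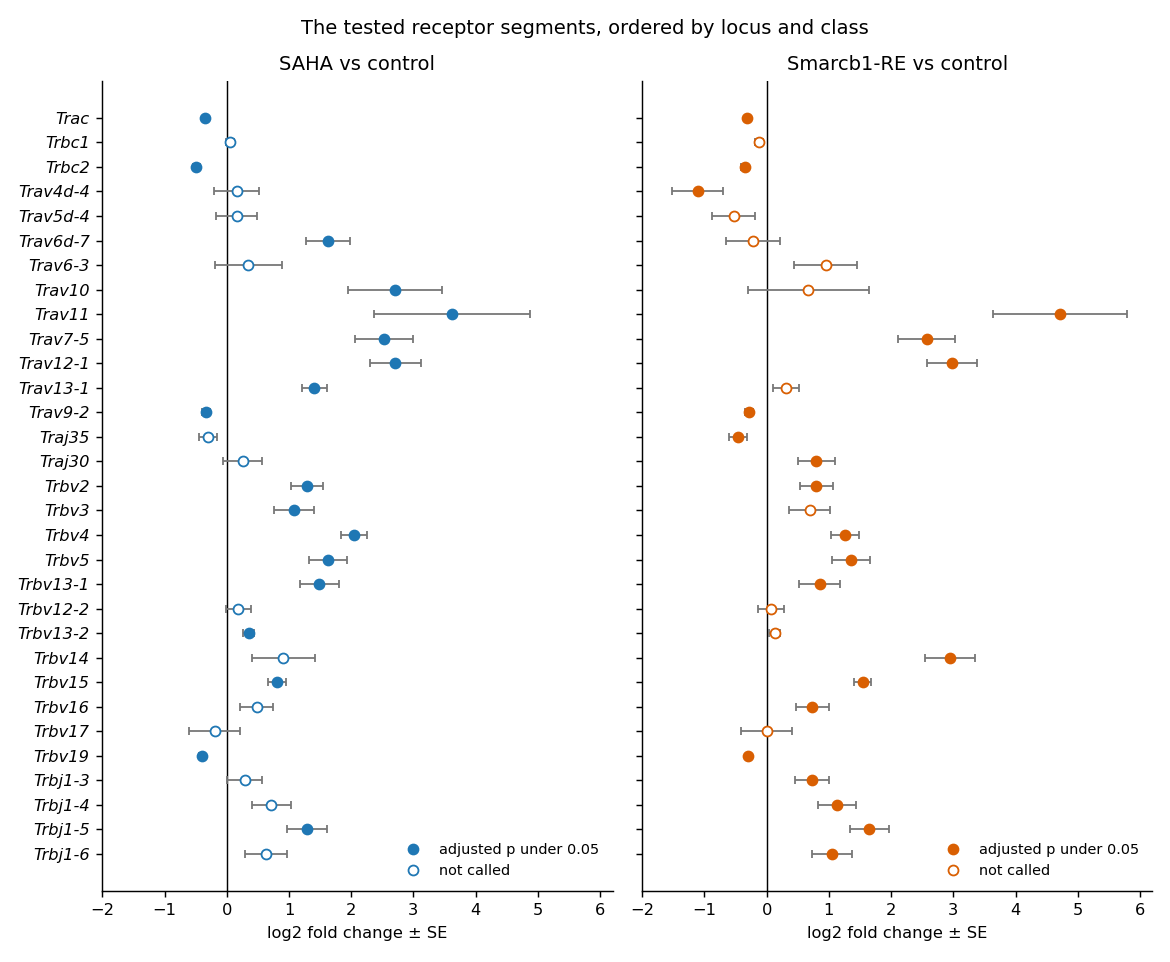
Log2 fold changes with SE (horizontal axes) of the 31 tested segments (vertical axis, C segments first, then alpha and beta segments in chromosomal order) for SAHA and for Smarcb1-RE against control. Filled points passed the test, and Trac, Trbc2, Trav9-2 and Trbv19 lie left of 0 in both panels while most other V segments lie right of 0.

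Between the treated groups, 2 of the 31 segments were higher in Smarcb1-RE than in SAHA, which is 6.45% against 37.7% of all tested genes, and 7 were lower, which is 22.6% against 36.8%. The 2 higher segments were Trbv15 and Trbv14, which passed the filter only through Smarcb1-RE. The lower ones were Trav10, Trav6d-7, Trav4d-4, Trav13-1, Trbv4, Trbv13-2 and Trbc1, the last at −0.19 (SE 0.06, adjusted p = 0.0182, edgeR). Of these, Trav10 and Trav6d-7 passed the filter only through SAHA. The Trbc1 call was lost by library totals only (−0.028) and without SAHA replicate 1, that of Trbv13-2 in DESeq2, by library totals only (−0.064) and without SAHA replicate 3 or Smarcb1-RE replicate 1 or 3, and that of Trav4d-4 without SAHA replicate 2 or Smarcb1-RE replicate 3 (adjusted p from 0.0543 to 0.689 over these losses). Without control replicate 1, which enters the shared estimate of the spread, 5 were higher and 7 lower. The log2 difference between Smarcb1-RE and SAHA was 0.04 for Trac (95% interval −0.04 to 0.12) and 0.05 for Trav9-2 (−0.10 to 0.20), neither of which passed the test. It was 0.14 for Trbc2 (0.01 to 0.27) and 0.10 for Trbv19 (0.00 to 0.20), which also missed the threshold (adjusted p = 0.0536 and 0.0564, edgeR). Without control replicate 1 both passed, at 0.13 and 0.10 (adjusted p = 0.0017 and 0.0443, edgeR). Each passed in a fit of its pair of groups alone, Trbc2 also in DESeq2 and with a replicate block and Trbv19 without SAHA replicate 1. By library totals only all 4 passed, at 0.20 for Trac, 0.21 for Trav9-2, 0.29 for Trbc2 and 0.26 for Trbv19 (adjusted p from 0.000204 to 0.0201, edgeR).

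Summed per class, the V segments without the leaders rose while the leaders fell. Alpha V segments other than Trav9-2 summed to 5.14 ± 0.437 CPM (SD, n = 3) in control, 12.9 ± 1.45 with SAHA and 8.39 ± 0.537 in Smarcb1-RE. Beta V segments other than Trbv19 summed to 22.9 ± 1.25 CPM in control, 36.2 ± 1.43 with SAHA and 35.9 ± 0.323 in Smarcb1-RE. In all 4 comparisons with control no library overlapped (p = 0.1 in the exact permutation test, two-sided, and no lower p is possible). The sum of all beta V segments, in which Trbv19 prevails, was 177 ± 2.07 CPM in control, and fell to 153 ± 6.68 with SAHA and to 161 ± 2.86 in Smarcb1-RE without overlap (exact permutation p = 0.1), and by library totals only the log2 ratio of Smarcb1-RE to control turned from −0.13 to 0.027.

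The alpha J segments summed to 8.75 ± 0.588 CPM (SD, n = 3) in control, 7.63 ± 0.338 with SAHA and 9.41 ± 0.903 in Smarcb1-RE. SAHA lay below control without overlap (exact permutation p = 0.1), and Smarcb1-RE overlapped control (exact permutation p = 0.3). The beta J segments summed to 2.70 ± 0.378 CPM (SD, n = 3) in control, 4.27 ± 0.994 with SAHA and 5.68 ± 0.127 in Smarcb1-RE, with no overlap between groups (exact permutation p = 0.1 each). The 30 alpha J segments 3′ of Traj35 together had 48, 40 and 38 counts in control, 48, 46 and 42 with SAHA and 93, 98 and 110 in Smarcb1-RE libraries. Smarcb1-RE libraries thus had more of these counts than any other library, from lower library totals. The beta C sum was 804 ± 80.6 CPM in control, 712 ± 30.1 with SAHA and 686 ± 5.41 in Smarcb1-RE, again without overlap with control.

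The share of the leading segment in its class does not depend on the level of the locus. Trav9-2 held 94.9% ± 0.222 (SD, n = 3) of alpha V counts in control, 85.4% ± 1.24 with SAHA and 90.3% ± 0.657 in Smarcb1-RE, with no overlap between any groups. Trbv19 held 87.0% ± 0.739 of beta V counts in control, 76.3% ± 1.41 with SAHA and 77.8% ± 0.509 in Smarcb1-RE, where only the treated groups overlapped each other. For each of these comparisons without overlap the exact permutation test gave p = 0.1, the smallest possible.

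Traj35 held 79.6% ± 4.33 (SD, n = 3) of alpha J counts in control and 53.5% ± 5.96 in Smarcb1-RE, without overlap (exact permutation p = 0.1). In SAHA it held 74.0% ± 2.83, which overlapped control (exact permutation p = 0.2). Trbj1-3 held 44.6% ± 6.26 of beta J counts in control, 33.7% ± 8.78 with SAHA and 35.0% ± 6.62 in Smarcb1-RE, and these overlapped (exact permutation p = 0.3 for both). The leading J segment of the beta locus thus stood out far less from its neighbours than Traj35 did.

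**Figure D4:**
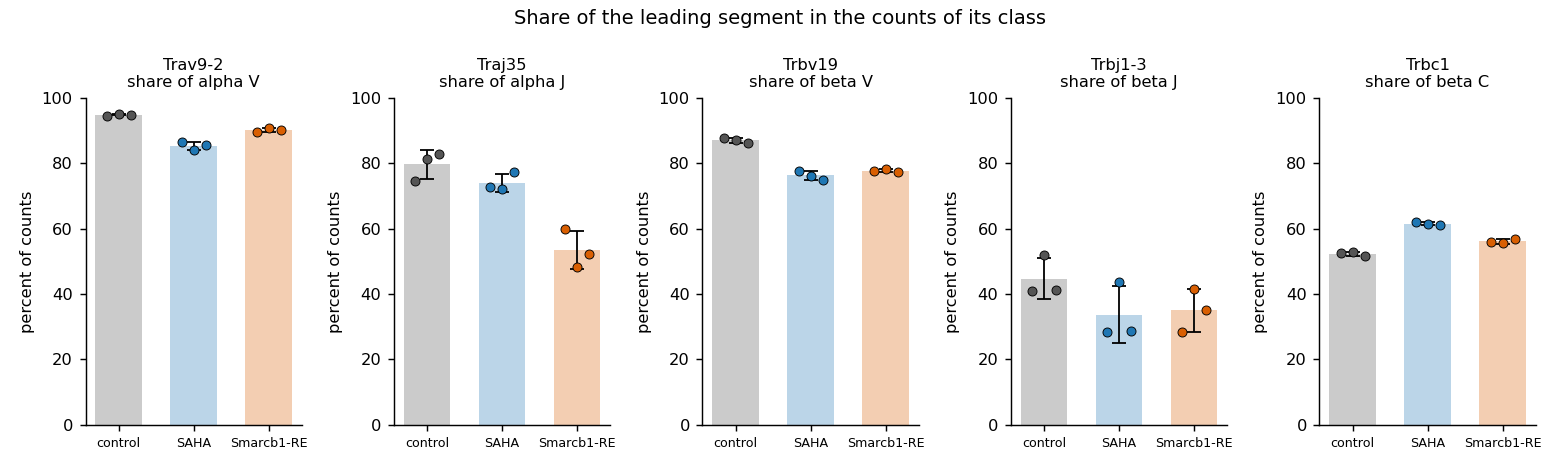
Percent of the counts of a class (vertical axes, 0 to 100) held by Trav9-2, Traj35, Trbv19 and Trbj1-3, and by Trbc1 of the beta C counts, in the 3 groups (horizontal axes), where points are libraries, bars means and error bars SD (n = 3). The V shares of both treated groups lie below control, the Traj35 share is lowest in Smarcb1-RE, and the Trbj1-3 shares overlap.

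The other genes of the receptor moved in both directions. The list of CD3 chains, co-receptors and pre-TCR alpha had 8 genes, of which 7 were tested, with 3 higher and 2 lower under SAHA and 1 higher and 4 lower in Smarcb1-RE. For this list and those that follow, 32.6% of all tested genes were higher and 34.3% lower under SAHA, and 39.2% higher and 38.6% lower in Smarcb1-RE. Cd3g, a signalling subunit, rose by 0.40 (SE 0.05, adjusted p = 2.28e-05, edgeR) under SAHA and fell by 0.35 in Smarcb1-RE, whereas Cd247, which encodes the zeta chain, fell by 0.61 and 0.28. Cd8a, a co-receptor chain, rose in both, by 0.55 and 0.20. Ptcra, the pre-TCR alpha chain of immature thymocytes, had 1 to 14 counts per library and passed neither test against control.

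Of 15 recombination genes 12 were tested, with 1 higher and 8 lower under SAHA and 4 higher and 6 lower in Smarcb1-RE. The recombinase genes and terminal transferase were too low to test: Rag1 had 1, 3 and 5 counts in the Smarcb1-RE libraries and none elsewhere, Rag2 had at most 1 count per library, and Dntt had 1 count in all. Hmgb2, a cofactor of the recombinase, fell by 0.78 and 1.07, and Prkdc, the DNA-dependent protein kinase of end joining, fell by 0.24 under SAHA and rose by 0.87 in Smarcb1-RE.

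Of 16 transcription factors that act on the receptor loci all were tested. Under SAHA 4 rose and 7 fell, and in Smarcb1-RE 8 rose and 6 fell. Tcf7, which encodes TCF-1, fell by 2.58 (SE 0.05) in Smarcb1-RE and by 0.11 under SAHA, and Gata3 and Runx1 rose by 2.57 and 2.46 in Smarcb1-RE. Of 6 genes that flank the loci 4 were tested, with 3 higher and 1 lower under SAHA and 1 higher and 2 lower in Smarcb1-RE. Dad1, next to the alpha locus, rose by 0.40 under SAHA and fell by 1.05 in Smarcb1-RE, and Ephb6, next to the beta locus, rose by 0.86 and fell by 0.41. Abhd4, next to Dad1, rose by 0.64 and 0.98, and Stard3nl, next to the gamma locus, fell by 0.56 under SAHA and was at −0.14 in Smarcb1-RE, which did not pass the test.

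Markers of other cells were measured beside these changes. B-cell markers summed to 92.7 to 96.0 CPM in control, 101 to 112 with SAHA and 156 to 163 in Smarcb1-RE libraries. Most of this was Ebf1, with means of 92.8, 106 and 152 CPM. The 4 fibroblast markers summed to 6.29 to 8.84 CPM in control, 6.76 to 7.06 with SAHA and 66.4 to 68.6 in Smarcb1-RE. Nearly all of this was a single gene, Pdgfra, with means of 7.57, 5.90 and 67.1 CPM. Col1a1 was at 0.085, 0.90 and 0.48 CPM, and Col1a2 and Dcn were too low to test. The 8 myeloid markers summed to at most 0.85 CPM in any library, and the 4 markers of immature thymocytes to at most 0.862 CPM. The part of these genes in the changes of the receptor segments was not tested.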

How the data were processed

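The authors deposited estimated counts per Ensembl gene for the 9 libraries, not normalized and not pooled. Single-end reads came from strand-specific libraries. The submitters' processing notes name FastQC 0.11.8, MultiQC 1.7, Salmon 0.14.1, DESeq2 1.22.2 and GRCm38, without their roles. Of the deposited values above 0, 52.4% were not whole numbers and were rounded. Identifiers were matched to GENCODE M21 (99.3% matched, with 99.9% of the counts). 

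Members and gene lists were chosen with earlier results of these data known. Named genes were all C segments, up to 5 tested segments with the highest mean CPM per locus and class, up to 5 called segments with the largest absolute log2 fold change per comparison and direction, Smarcb1 and list members.

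A single fit to 3 groups was made in R 4.3.3 with edgeR 4.0.16 (TMM, filterByExpr with a minimum count of 10, glmQLFit, glmQLFTest, Benjamini-Hochberg over all tested genes), and the calculation was tested on simulated counts. The SE was obtained from the log2 fold change and the F statistic, as the first over the root of the second. CPM used TMM-scaled library sizes. Class sums and shares were compared by two-sided exact permutation tests (Python 3.11.15, NumPy 2.4.6, pandas 2.3.3). Counting intervals were exact (SciPy 1.17.1). Shared words are 31-base words of annotated transcripts found in more than 1 receptor gene, pseudogenes included. Alternatives were DESeq2 1.42.0, median-ratio factors, library totals only, no filter, separate fits, a replicate block, summed paralog copies, division by exonic length and leaving out each library. Library totals of 20900424 to 24941408 limit precision for segments with few counts. Transcript sequences are those of GENCODE M21. Receptor pseudogenes are not members, and values of the 4 tested ones are given in the closing section.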

Additional observations from a re-analysis of the deposited data

Results flagged for a closer look

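V segments annotated as pseudogenes were left out of the members, and 4 of the 42 listed receptor pseudogenes passed the filter on low counts. They stand out because they carried signal outside the main measurement and above the control level. Under SAHA Trbv8 rose by 0.92 on the log2 scale (adjusted p = 2.34e-05, edgeR) and Trbv10 by 0.87 (adjusted p = 0.000423, edgeR). Trbv6 and Trbv9 were higher by 2.39 and 1.39. Trbv6 was under 10 counts in every control library. Trbv9 had 1, 10 and 15 counts in control and reached 10 in every library of a group only with SAHA. Both passed the filter through the treated groups, so no p is given for them. In Smarcb1-RE the log2 fold changes of Trbv6 and Trbv9 against control were 1.80 and 0.20. Trbv6 had 1, 8 and 5 counts in control, 18, 29 and 25 with SAHA and 21, 13 and 14 in Smarcb1-RE libraries, and Trbv8 had 126, 185 and 182, then 289, 317 and 295, then 84, 83 and 83.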

How the results depend on the processing

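The counts of called segments and the class values mostly kept their direction and size. Of the values that answer a comparison, 293 were graded as kept and 15 as moved. The grade allowed for some shift. For example, the beta C log2 ratio under SAHA went from −0.18 to −0.091 without control replicate 1 and was graded as kept. The number of segments higher in Smarcb1-RE than in SAHA, 2 as reported, was 7 by library totals only, 6 with no filter on low counts, 4 when each pair of groups was fitted alone and 2 to 5 when a library was left out. The number lower, 7 as reported, was 12 with no filter. By library totals only, log2 ratios of Smarcb1-RE to control were −0.15 for alpha C, −0.071 for beta C, 0.027 for beta V, 0.86 for alpha V without Trav9-2 and 0.80 for beta V without Trbv19. With counts divided by exonic length, the difference in percentage points of the Trav9-2 share was −13.1 under SAHA and −6.46 in Smarcb1-RE, and that of the Trbv19 share −13.3 and −11.6. For these the cause was not tested. Among single segments, 27 calls were lost, 23 gained and 9 signs turned, all 9 of uncalled values: Trav4d-4 (−0.22) and Trbj1-3 (−0.029) under SAHA without SAHA replicate 2, Trbc1 in Smarcb1-RE by library totals (0.031), Trbv12-2 in Smarcb1-RE without control replicate 1 or Smarcb1-RE replicate 1 (−0.092 and −0.013) and against SAHA by library totals (0.044), and Trav7-5 against SAHA without SAHA replicate 1 or Smarcb1-RE replicate 2 or 3 (−0.19, −0.13 and −0.10). Over all libraries left out in turn, Trav4d-4 lay between −0.22 and 0.45, Trbj1-3 between −0.029 and 0.54, Trbv12-2 between −0.092 and 0.27 and Trav7-5 between −0.19 and 0.30. Libraries with the same replicate number did not deviate together (mean correlation −0.003, from −0.072 to 0.037), so the numbers do not pair them. With the replicate block 14 segments were higher and 4 lower under SAHA, and 14 higher and 6 lower in Smarcb1-RE. Low counts limit many of the alpha V copies and J segments, and also beta V segments such as Trbv14.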

Other observations

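Trbv8 and Trbv10, receptor pseudogenes singled out after their values were seen, fell in Smarcb1-RE against control by 0.93 and 1.01 on the log2 scale (adjusted p = 4.68e-05 and 0.000251, edgeR), while they had risen under SAHA. Trbv10 had 62, 65 and 52 counts in control, 105, 111 and 99 with SAHA and 25, 28 and 33 in Smarcb1-RE libraries. Among the members in that part of the locus, Trbv5 and Trbv13-1 were higher in both comparisons. Others were not: Trbv3 and Trbv13-2 passed only under SAHA, and Trbv12-2, at 0.19 and 0.07, passed neither test.

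Trav9-1 and Trav7-4, too low to test and also chosen after their values were seen, had 7, 9 and 6 counts and 8, 9 and 11 counts in the SAHA libraries. In control they had 1, 1 and 0 and 3, 2 and 1 counts, and in Smarcb1-RE 0 counts in every library and 1, 0 and 6 counts.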
